A study of Mus musculus with 6 samples.

Results

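The very long genes described here are the 292 gene regions, of 24012 in the deposited table, whose region spans at least 400 kb. Another 10 regions of that length were left out by name (Mecom, Arid1b, and names starting Dock, Arhgap, Arhgef or Pcdh). Of the 292, 279 lie on autosomes and 13 on chromosome X, and 129 overlap another listed region, so that those share reads. The longest were the receptor phosphatase gene Ptprd at 2273 kb, the dystrophin gene Dmd at 2258 kb and the neuronal adhesion gene Cntnap2 at 2243 kb. Just inside the threshold stood Ryr3 at 400.95 kb, and just outside it Ncam2 at 399.109 kb. In WT H3K79me2 these neighbours of the threshold had 1278 and 1346 counts, and in WT H3K79me3 2052 and 2503.

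The study measured 2 marks of histone H3, H3K79me2 and H3K79me3, by ChIP-seq in mouse hematopoietic progenitor cells. The cells were isolated from bone marrow and transduced with a retrovirus carrying MLL-AF9, a leukemia fusion protein, as WT, D544R or D546R. All 6 groups therefore carried a form of the fusion, cells without it were not among them, and a group is 1 library of 1 mark from 1 of the 3 genotypes. The reads of each library were merged from several runs, per the labels, and nothing gives variation between cultures or animals. The groups could therefore not be tested against each other, and the intervals given below cover counting error alone.

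DOT1L is the enzyme that methylates lysine 79 of histone H3, and the mark lies mainly over the first part of transcribed genes. AF9 binds DOT1L, and in MLL fusions this contact brings the enzyme to the fusion's target genes. Genes of extreme length are mostly genes of neurons and muscle: adhesion proteins, receptors, channels and scaffolds built from many domains, with large introns. Most have little or no known role in blood cells, while a few, such as the engulfment and motility gene Elmo1, are active there. A count over such a region is an average over its whole length, so a signal confined to its first part is diluted. A lower count cannot tell fewer cells with the mark from less mark in each cell.

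Totals ran from 3558329 to 6652571 counts per library. Marker genes of blood progenitors and myeloid cells, summed over length, had 3.64 times the density of 43 genes of other tissues taken as a silent reference in WT H3K79me2, and 10 of these 18 markers stood at 3 times or more. In H3K79me3 the WT value was 2.09 times. Markers of neurons shorter than 400 kb were at 0.741 times the silent reference, stroma at 0.824, lymphoid cells at 0.804 and erythroid cells at 0.741. None of the markers in these 4 lists reached 3 times in any library, and in WT H3K79me2 none was at 0 counts. Reads per independent fragment, estimated from short regions without reads, were 4.05, 3.26 and 4.78 in WT, D544R and D546R for H3K79me2 and 9.73, 8.12 and 18.6 for H3K79me3. Intervals of log2 ratios in parentheses below were widened by these factors and are called fragment intervals. The interval of a share of counts was not widened.

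Start regions of 4 members are shown because the table's regions begin before the transcription start, and because the members' median number of CG dinucleotides there was above that of all promoters. Of the 292, 227 had a promoter in RefSeq's GRCm38.p6 table, 250 bases before to 50 after the start. For a gene with more than 1 start only the outermost was used. It was not matched to the start of the counted region, so some promoters may belong to transcripts that begin elsewhere. They held a median of 20 CG dinucleotides in the 15 matched members with raised signal (defined below) and 17 in the 212 others, against 7 over all 27025 promoters. At least 10 CG dinucleotides were present in 73.3%, 71.7% and 44.0% of these sets. The sequences read 5′ to 3′ on the gene's strand, with CG dinucleotides in capitals and the start at base 251. Aff2 (chrX:69360081-69360380, plus strand) and Snd1 (chr6:28480098-28480397, plus strand) had the highest relative signal in WT. Cntnap2 (chr6:45059811-45060110, plus strand) and Skint5 (chr4:113999454-113999753, minus strand) stood near the level of the typical very long gene.
Aff2: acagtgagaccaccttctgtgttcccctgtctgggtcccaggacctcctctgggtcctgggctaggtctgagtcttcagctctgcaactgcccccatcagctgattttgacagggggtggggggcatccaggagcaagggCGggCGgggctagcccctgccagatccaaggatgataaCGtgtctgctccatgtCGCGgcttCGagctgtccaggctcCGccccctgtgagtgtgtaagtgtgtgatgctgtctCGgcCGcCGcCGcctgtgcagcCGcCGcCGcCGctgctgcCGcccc
Snd1: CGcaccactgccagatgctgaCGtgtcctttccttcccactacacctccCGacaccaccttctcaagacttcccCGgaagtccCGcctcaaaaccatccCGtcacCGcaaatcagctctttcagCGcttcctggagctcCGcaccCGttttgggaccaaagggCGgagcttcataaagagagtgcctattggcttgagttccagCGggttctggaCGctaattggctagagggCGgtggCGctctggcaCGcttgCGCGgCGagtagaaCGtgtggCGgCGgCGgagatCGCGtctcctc
Cntnap2: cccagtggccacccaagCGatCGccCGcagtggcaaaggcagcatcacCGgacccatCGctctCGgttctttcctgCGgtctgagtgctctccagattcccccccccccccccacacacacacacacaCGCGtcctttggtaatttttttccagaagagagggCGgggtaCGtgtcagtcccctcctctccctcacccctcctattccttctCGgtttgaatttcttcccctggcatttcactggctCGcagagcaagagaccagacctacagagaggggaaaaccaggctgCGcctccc
Skint5: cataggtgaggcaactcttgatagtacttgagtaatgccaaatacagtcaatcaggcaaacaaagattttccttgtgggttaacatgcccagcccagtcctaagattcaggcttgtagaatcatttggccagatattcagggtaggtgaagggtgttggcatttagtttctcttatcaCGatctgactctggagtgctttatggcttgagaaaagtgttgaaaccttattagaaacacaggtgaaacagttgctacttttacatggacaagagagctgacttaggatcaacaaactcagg
These windows held 16, 25, 14 and 1 CG dinucleotides. The neuronal gene Cntnap2 thus had a CG count close to that of Aff2, though its H3K79me2 density relative to its peers in WT was 0.95 times and that of Aff2 3.44 times. Skint5, a gene of an epithelial membrane protein family, was at 0.95 times with a single CG. The ETS core CGGAAG, searched on both strands as were the other motifs, which itself holds a CG dinucleotide, was present in 20% of matched members with raised signal, 11.8% of the others and 17.2% of all promoters. It was found in Snd1. The RUNX core TGTGGT was present in 20%, 8.96% and 16.9%, and TATAAA in 6.67%, 7.55% and 14.2%. With 15 promoters in the raised set, 20% is 3 genes.

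The signal over very long genes was close to that of silent genes in WT. The median autosomal member had 3.14 counts per kb in H3K79me2 and 4.53 in H3K79me3, 0.802 and 0.964 times the silent reference. In D544R these ratios were 0.789 and 0.926, and in D546R 0.731 and 0.861. None of the 292 reached 3 times the silent reference in either WT library, while 13.2% of the other genes did so in H3K79me2 and 6.72% in H3K79me3. Between 1.5 and 3 times stood 5 members in H3K79me2 and 1 in H3K79me3. By share, the members covered 19.5% of the summed length of all regions and held 10.6% of the counts in WT H3K79me2 (exact binomial 95% interval 10.58 to 10.63), 10.1% in D544R and 9.85% in D546R. In H3K79me3 they held 15.0%, 16.0% and 16.2%, more than in H3K79me2 in each genotype.

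Length and density were related across the autosomal genes, without the regions of at least 400 kb left out by name. In WT H3K79me2 the share of genes at 3 times the silent reference or more was 11.6% below 10 kb, 15.4% from 10 to 50 kb and 18.1% from 50 to 100 kb. It was 11.1% from 100 to 200 kb, 4.97% from 200 to 400 kb and 0% among the 279 autosomal members, which alone form the longest bin. In H3K79me3 the same bins had 8.77%, 6.04%, 7.35%, 3.97%, 1.20% and 0%. The spread also narrowed with length: the standard deviation of the D546R to WT log2 ratio, over genes with a mean of at least 100 scaled counts, was 0.62 in the shortest H3K79me2 bin and 0.15 in the longest, and 1.20 and 0.22 in H3K79me3. Longer regions hold more reads, so their ratios have a smaller counting error. The part of the counting error in this narrowing was not tested.

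**Figure D1:**
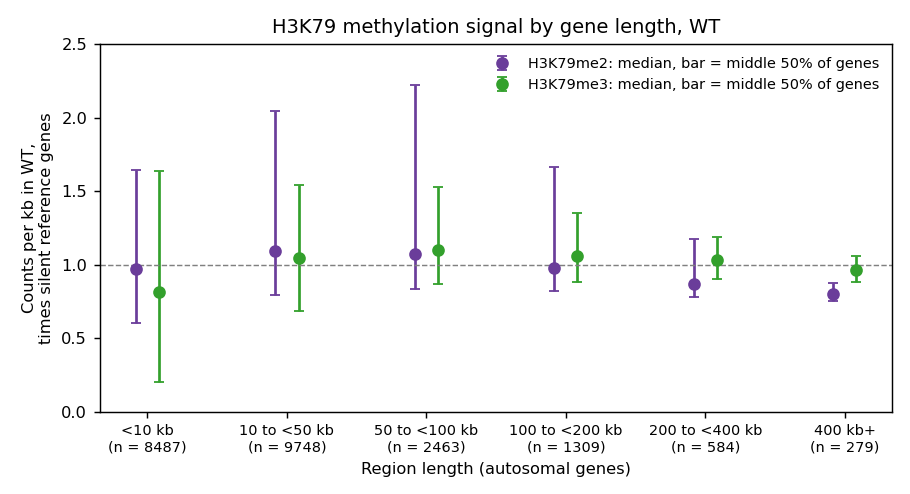
Counts per kb in the WT libraries, as multiples of the silent reference genes, for autosomal genes in 6 bins of region length; points are medians and bars span the middle 50% of genes. The longest bin holds the autosomal members only, without the regions left out by name. The median of the longest bin is 0.802 in H3K79me2 and 0.964 in H3K79me3, and the bars of that bin are short.

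The 13 members on chromosome X had a lower density than the autosomal members. Their median was 0.507 times the autosomal member median in WT H3K79me2, 0.514 in D544R and 0.525 in D546R, and 0.513, 0.543 and 0.492 in H3K79me3. Dmd, which links the muscle cytoskeleton to the membrane, had 3455, 2291 and 2019 counts in H3K79me2 and 4549, 5122 and 6216 in H3K79me3 (WT, D544R, D546R in this and the following lists of counts). Its WT density in H3K79me2 was 1.53 counts per kb, against 2.99 for the autosomal Cntnap2 of almost the same length. Because of this offset, a member is compared below with the median member of its own chromosome class in the same library, called the long-gene level.

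**Figure D2:**
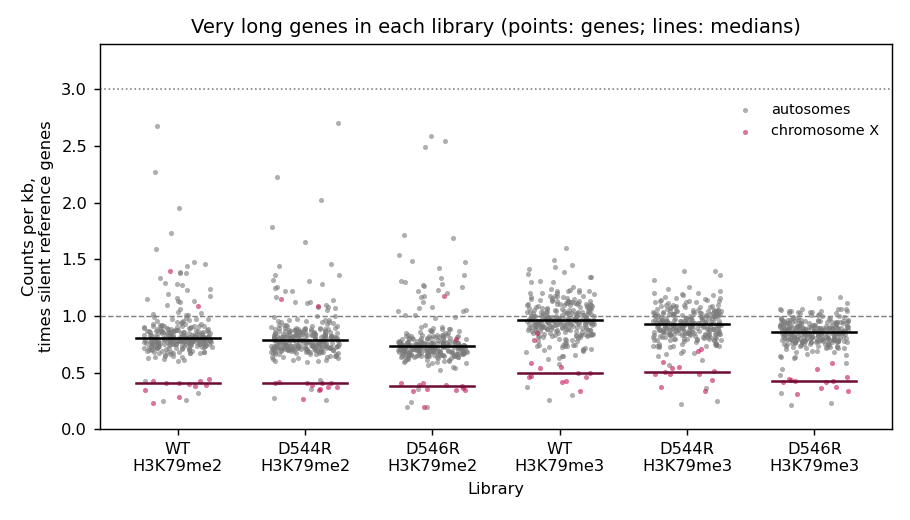
Density of each very long gene in each of the 6 libraries, as a multiple of the silent reference genes; grey points are the 279 autosomal genes, red points the 13 genes on chromosome X, and lines the medians. The dashed line marks the silent reference and the dotted line 3 times that value, which no gene reaches; in H3K79me2 a tail of autosomal genes stands above the rest in each genotype.

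Most members stayed near the long-gene level. In WT H3K79me2 the middle 90% of the autosomal members ran from 0.835 to 1.59 times it, and in WT H3K79me3 from 0.738 to 1.27 times. Above this level, at 1.5 times or more in WT H3K79me2, were 19 of the 292 members (6.51%), against 41.3% of all other genes by the same measure. This limit was set after the values were seen, since no member reached 3 times the silent reference. These 19 are called the raised members. The name is relative to their peers: they ran from 1.09 to 2.67 times the silent reference, with a median of 1.39. Most of them thus stood below 1.5 times the silent reference. Across the 279 autosomal members the WT levels in the marks correlated with Pearson's r of 0.61 and Spearman's rho of 0.54. The genes are not independent replicates, and mappability and base composition are shared by the marks.

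Among the raised members were genes of cell motility, signalling, RNA processing and transcription. Snd1 (NM_019776, mm9 chromosome 6, 28428347 to 28838832), which encodes a nuclease-domain protein of RNA regulation, had 4303, 3033 and 2472 counts in H3K79me2 and 3082, 2642 and 2791 in H3K79me3. Its density, 10.5 counts per kb in WT H3K79me2, was the highest of the 279 autosomal members and 2.67 times the silent reference. It was 3.33, 3.43 and 3.54 times the long-gene level in H3K79me2 and 1.66, 1.51 and 1.22 times in H3K79me3. Snd1 was thus about equally high in the H3K79me2 libraries and lowest in D546R in H3K79me3.

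Elmo1 (NM_080288, chromosome 13, 20180375 to 20700222) works with DOCK proteins to activate the GTPase RAC in engulfment and migration. It had 4634, 3159 and 3014 counts in H3K79me2 and 3284, 2838 and 3901 in H3K79me3. In H3K79me2 its level was 2.83, 2.82 and 3.41 times that of its peers, and in H3K79me3 1.39, 1.28 and 1.34 times. The formin gene Diap2 on chromosome X, an organiser of actin, was at 2.68, 2.69 and 3.07 times the X level in H3K79me2 and 1.59, 1.38 and 1.37 times in H3K79me3. Relative to their peers, both genes were highest in D546R in H3K79me2 and in WT in H3K79me3.

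Atxn1 (NM_001199305, chromosome 13, 45643124 to 46060360), a transcriptional regulator known from spinocerebellar ataxia, had 3196, 2311 and 2472 counts in H3K79me2 and 1837, 2089 and 2709 in H3K79me3. It was raised in H3K79me2 at 2.44, 2.57 and 3.48 times the long-gene level but not in H3K79me3, at 0.97, 1.17 and 1.16 times. Abca13, a lipid transporter family gene, stood at 2.16 times in WT H3K79me2, and the cyclic AMP phosphodiesterase gene Pde4d at 1.84. Pde4d had the most counts of any member in each H3K79me2 library, 7558 in WT, over its 1304 kb. The lower end of the raised set held genes of many cell types: Lpp, a focal adhesion gene, at 1.60 times, Utrn, the dystrophin relative utrophin, at 1.59, and Fars2, a mitochondrial tRNA synthetase gene, at 1.53. Between them and Pde4d were Tbc1d5, Rabgap1l and Dennd1a, regulators of RAB GTPases, Vps13b, a Golgi lipid transfer gene, Mctp1, Fam172a and Gphn, and 2210408I21Rik stood at 1.55.

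Gphn encodes gephyrin, known as a scaffold of inhibitory synapses and also an enzyme of molybdenum cofactor synthesis in other cells. It was the 1 raised member among the 29 axon guidance and synapse scaffold genes. Its counts were 2511, 1573 and 1316 in H3K79me2 and 3141, 2488 and 2970 in H3K79me3, or 1.74 and 1.51 times the long-gene level in the WT libraries.

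The region listed as Mir6369 was raised at 1.99 times the long-gene level, but it is not a measure of that microRNA. It spans 414.8 kb of mm9 chromosome 5 (31236397 to 31651218) and holds 21 other gene regions whole. Of its 2591 counts in WT H3K79me2, 31.2% lay in the phosphatase gene Ppm1g, whose density was 6.51 times that of the whole region. RefSeq's GRCm38.p6 entry of the same name is a 106-base hairpin on chromosome 13. The mature microRNA is shown for scale, with its seed (bases 2 to 8) in capitals.
mmu-miR-6369: uGGCUCAGuucaguguuggugag
Dense nested genes were few among the 116 pairs of a host and a region of at least 5 kb inside it, in 58 hosts. Regions inside both of the overlapping hosts Klra22 and Klra15 were counted under each. In 4 pairs the region had at least 2 times the density of its host in WT H3K79me2, and in 7 in WT H3K79me3. Among the 4 was Cstf2t, a polyadenylation factor gene inside the kinase gene Prkg1, at 3.30 times its host with 68 counts in WT H3K79me2.

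**Figure D3:**
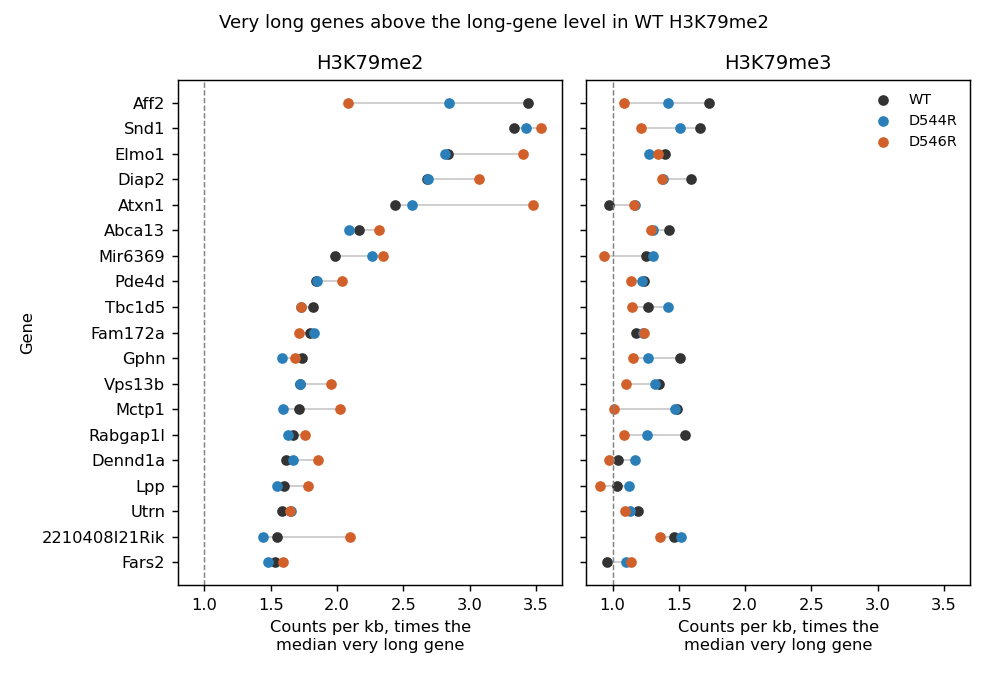
Density of the 19 raised members relative to the long-gene level (dashed line at 1), by genotype, in H3K79me2 (left) and H3K79me3 (right); each point is 1 library. Aff2 is lowest in D546R in both marks; in H3K79me3 the D546R points of 16 of the 19 genes lie below the WT points.

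The lists of neural genes held few raised members. Of 39 members in the list of neuronal adhesion genes none was raised, and their WT H3K79me2 levels ran from 0.750 to 1.07 times the long-gene level. Cntnap2, which clusters potassium channels along axons, had 6717, 4636 and 3703 counts in H3K79me2 and 10206, 9690 and 14996 in H3K79me3. Its relative level was 0.95, 0.96 and 0.97 times in H3K79me2 and 1.00, 1.01 and 1.20 in H3K79me3. Csmd1, a large membrane protein gene, was at 0.96, 0.95 and 0.96 in H3K79me2. Both genes thus sat near the median member in each H3K79me2 library, though Cntnap2 held the most counts of any member in WT and D546R H3K79me3.

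The 11 glutamate and GABA receptor genes ran from 0.850 to 1.09 times in WT H3K79me2 and the 16 channel genes from 0.858 to 1.45, with none raised. Grm5, a metabotropic glutamate receptor gene, was at 1.02, 1.06 and 1.01 times. The highest channel gene was Kcnq5, a potassium channel, with 2572, 1549 and 1330 counts in H3K79me2. The 6 receptor tyrosine phosphatases had a median of 0.932 times, with Ptprd at 0.87, 0.85 and 0.99. The 7 genes on the RNA-binding list, with the neuronal splicing regulators Rbfox1 and Rbfox3, had none raised. They included Msi2, an RNA-binding regulator of hematopoietic stem cells, at 1.01 times in WT H3K79me2 and 0.86 in WT H3K79me3. Thsd7a, a thrombospondin-domain gene, was also on that list, so the name of the list does not describe each gene on it.

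Lists with wider roles held the remaining raised members that were on a list. Of 24 genes on the signalling list 5 were raised (Elmo1, Diap2, Pde4d, Tbc1d5 and Rabgap1l), of 19 on the transcription and chromatin list 2 (Atxn1 and Lpp), and of 20 on the dystrophin complex and cytoskeleton list 2 (Utrn and Vps13b). Here too the names are loose: Lpp is a focal adhesion gene and Vps13b a Golgi lipid transfer gene. None of the 26 fragile site and metabolic genes was raised. There, Fhit, at 1614 kb the gene of a well-known fragile site, was at 1.04, 0.98 and 1.02 times in H3K79me2, Wwox at 0.99, 0.99 and 0.94, and Macrod2 at 0.96, 0.91 and 0.98. The other 9 raised members were among the 96 members on no list.

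A few members had far fewer reads than the rest. Rasgrf2, which encodes an exchange factor for RAS, had 890, 633 and 410 counts in H3K79me2 over 883 kb, 0.32, 0.33 and 0.27 times the long-gene level. It was at 0.31, 0.25 and 0.25 times in H3K79me3. The predicted gene Gm14405 was at 0.32, 0.35 and 0.27 times in H3K79me2, LOC100861615 at 0.39, 0.46 and 0.33, and Dpf3, a chromatin remodeler subunit, at 0.53, 0.55 and 0.48. On chromosome X, Gm2012 was at 0.58 times in WT H3K79me2 and Mageb18 at 0.70. These autosomal genes were low in all 6 libraries alike. How much of each region is reachable by unique reads was not analysed here. Klra22 and Klra15 share nearly 1 region and had the same 1481 counts in WT H3K79me2, so they count as 1 measurement.

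D546R against WT compared the marks with the exchanged residue and without it. None of the 292 members, each with a mean of at least 100 scaled counts, was past the 2-fold rule in H3K79me2. That rule asks for a ratio of at least 2-fold and a counting interval that excludes no change. Over all 8905 genes with that mean, 0.865% were lower and 0.887% higher. In H3K79me3 again none of the members was past it, beside 8.92% lower and 6.94% higher of 10824 genes. With a mean of at least 1000 the background was 2.22% lower in H3K79me2, with 237 members among the 899 genes, and 5.77% lower in H3K79me3, with 292 members among 1247. Members thus made up much of the well-counted genes without holding any of those past 2-fold. On the lower side their levels largely set this outcome. Only 6 members in WT H3K79me2 and 0 in WT H3K79me3 stood at 2 times the long-gene level or more. Any other member that lost its whole excess over its peers would fall by less than about 2-fold. In either mutant the rule therefore cannot show whether the marks on these genes depend on the residue.

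At 1.5-fold, 1 member was lower in H3K79me2 (background 4.26% lower, 8.89% higher), and it was Aff2. In H3K79me3 Aff2 was again the 1 member lower (background 19.8%), and 4 were higher (background 16.8%). Fragment intervals excluded no change for 18 members below WT and 14 above in H3K79me2 (background 4.15% and 14.0%), and for 18 below and 42 above in H3K79me3 (background 9.76% and 7.38%). The background genes have fewer reads, with median half-widths of the fragment interval of 0.56 and 0.98 against 0.24 and 0.29 in members. Among other genes with a mean of at least 1000, 92 of 662 were below WT and 299 above in H3K79me2. In H3K79me3, 255 of 955 were below and 63 above. The median member ratio was -0.07 in H3K79me2, against 0.07 over all genes tested and 0.20 over the 662 other genes with a mean of at least 1000. In H3K79me3 it was 0.03, against -0.03 and -0.12 (955 other genes), and it was -0.18 when libraries were scaled to the silent genes, a scaling that shifts the median over all genes by -0.22. Below 0 were 130 of the 292 members in H3K79me3 and 234 under that scaling, and 194 and 239 in H3K79me2. Across the 279 autosomal members the D546R ratios in the marks correlated with r of -0.05.

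Aff2 (NM_008032, mm9 chromosome X, 66611505 to 67121212, overlapping no other region) had the lowest D546R ratio of the 292 members in both marks. The gene, also known as Fmr2, encodes a nuclear protein of the AFF family, whose members AFF1 and AFF4 belong to elongation complexes and are partners of MLL in leukemia fusions. Its counts were 2798, 1605 and 948 in H3K79me2 and 2042, 1675 and 1522 in H3K79me3. WT was the highest library and D546R the lowest in both marks, and also after scaling by length and library (4.08, 3.24 and 2.43 scaled counts per kb in H3K79me2, 4.08, 3.77 and 2.56 in H3K79me3). D546R was 1.67-fold lower than WT in H3K79me2, a log2 ratio of -0.74 (-0.98 to -0.51), and 1.60-fold lower in H3K79me3, -0.68 (-1.06 to -0.30).

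D544R stood between the other genotypes, at -0.33 (-0.50 to -0.16) in H3K79me2 and -0.11 (-0.40 to 0.17) in H3K79me3. Against D544R, D546R was at -0.41 (-0.66 to -0.17) and -0.56 (-0.95 to -0.19). Relative to the X long-gene level Aff2 was at 3.44, 2.84 and 2.08 times in H3K79me2 and 1.73, 1.42 and 1.09 times in H3K79me3. The D546R ratio in H3K79me2 lay between -0.81 and -0.71 over the 4 other scalings, and that in H3K79me3 between -0.89 and -0.61. Aff2 thus kept part of its excess over its X peers in D546R in H3K79me2 and was near their level in H3K79me3.

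Fmr1, the gene of the fragile X protein, lies at 65929715 to 65971136 on the same chromosome. It had 743, 507 and 249 counts in H3K79me2 and 716, 474 and 65 in H3K79me3. Its D546R ratio was -0.76 (-1.23 to -0.31) in H3K79me2, close to that of Aff2, and -3.70 (-5.80 to -2.21) in H3K79me3. The related member Aff3 was at the long-gene level, with 0.99, 1.10 and 0.96 times in H3K79me2 and a D546R ratio of -0.11 (-0.39 to 0.17). Aff1 and Aff4 are shorter than 400 kb. Their D546R ratios in H3K79me2 were 0.15 (-0.03 to 0.33) and 0.57 (0.28 to 0.86), and in H3K79me3 -0.12 (-0.45 to 0.22) and 0.20 (-0.46 to 0.84). In D544R Aff1 was at -0.39 (-0.69 to -0.09) in H3K79me3.

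Aff2 was the 1 raised member below WT by its fragment interval in H3K79me2, and 5 of the 19 were above WT by theirs. Over all genes tested 4.15% were lower and 14.0% higher. Of the 662 other genes with a mean of at least 1000, 92 were lower and 299 higher. With total counts all ratios shift by -0.065, more than the lower limits of Elmo1 (0.05), Mctp1 (0.01) and Diap2 (0.003). Snd1 was at 0.02 (-0.14 to 0.17) in D546R and Elmo1 at 0.20 (0.05 to 0.34). Atxn1 was higher by 0.45 (0.28 to 0.61) and 2210408I21Rik by 0.37 (0.18 to 0.56). Of the 19 raised members 13 had a ratio above 0, with a median of 0.08, against -0.08 over the other 273 members. Of the 662 well-counted other genes 480 were above 0, with a median of 0.20. The median of the raised members was 0.01 both with total counts and when scaled to the silent genes. These ratios share the WT library that chose the raised set.

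In H3K79me3 the raised members were less raised in D546R. The H3K79me3 libraries were not used to choose the set. The WT levels in the marks correlated, though (r of 0.61 over the autosomal members), so this is no independent check. Their median level was 1.35 times the long-gene level in WT, 1.28 in D544R and 1.14 in D546R. At 1.5 times or more stood 5 of the 19 in WT (Aff2, Snd1, Diap2, Gphn and Rabgap1l), 2 in D544R and 0 in D546R. For 16 of the 19 the level was lower in D546R than in WT, and for 11 it was lower in D544R than in WT. These comparisons share the WT library. In H3K79me2 the median level was 1.80, 1.73 and 2.02 times, and 4 of the 19 were lower in D546R than in WT.

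Several of the raised members were lower in D546R in H3K79me3 beyond their fragment intervals. Mctp1, a calcium-binding membrane gene, had 4379, 4088 and 3674 counts and a ratio of -0.50 (-0.75 to -0.26), while its ratio in H3K79me2 was 0.17 (0.01 to 0.34). Rabgap1l, with 3768, 2889 and 3271 counts, was at -0.46 (-0.72 to -0.19), and Snd1 at -0.39 (-0.68 to -0.11). Gphn was at -0.33 (-0.61 to -0.05). In all, 6 of the 19 were lower in this way and none was higher, among the 18 and 42 members named above. The rest of the 6 were Aff2 and the Mir6369 region, at -0.37 (-0.70 to -0.05). Within that region Ppm1g was at -1.20 (-2.11 to -0.38). Over all genes tested 9.76% were lower and 7.38% higher. Of the 955 other genes with a mean of at least 1000, 255 were lower and 63 higher. The median ratio of the 19 was -0.09, against 0.05 for the other 273 members and -0.12 for those 955 genes. It was -0.02 with total counts and -0.30 when scaled to the silent genes.

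The spread among members was also narrower in D546R in H3K79me3. Over the 279 autosomal members the standard deviation of the level relative to the long-gene level was 0.178 in WT H3K79me3, 0.157 in D544R and 0.137 in D546R. In H3K79me2 it was 0.291, 0.297 and 0.365. Over the 262 autosomal members outside the raised set it was 0.160, 0.142 and 0.132 in H3K79me3. Reads per fragment were highest in the D546R H3K79me3 library (18.6), and its fraction of short regions without reads was 33.5% against 17.6% in WT. The part of this difference between libraries in the narrower spread was not tested.

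**Figure D4:**
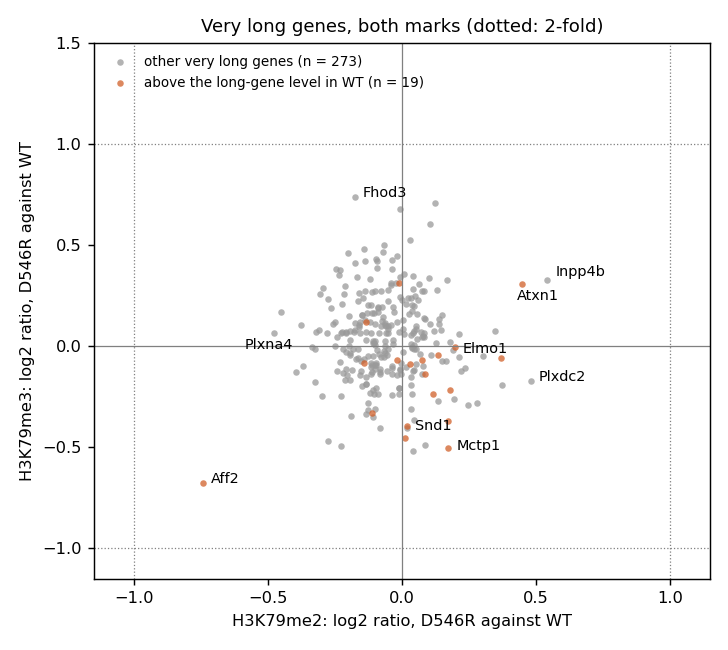
Log2 ratio of D546R to WT in H3K79me2 (horizontal axis) and H3K79me3 (vertical axis) for each of the 292 very long genes; orange points are the 19 raised members, and dotted lines mark 2-fold. All points lie inside the dotted lines, and Aff2 stands apart at -0.74 and -0.68.

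Outside the raised set, genes of mixed roles stood at the ends of the H3K79me2 ratios in D546R. Inpp4b, a phosphatase of phosphoinositide signalling, had 1408, 1075 and 1163 counts and the highest ratio, 0.54 (0.30 to 0.78). Plxdc2, a transmembrane protein gene with a plexin domain, followed at 0.48 (0.24 to 0.71), and the kinase gene Prkca was at 0.37 (0.12 to 0.63). In WT these genes were at 1.09, 1.20 and 1.06 times the long-gene level, and in D546R at 1.67, 1.75 and 1.44 times. The lowest after Aff2 were the semaphorin receptor gene Plxna4, with 1651, 1046 and 672 counts, at -0.48 (-0.77 to -0.20), the kinesin gene Kif26b at -0.45 (-0.77 to -0.15) and the membrane anchor gene Ank3 at -0.40 (-0.70 to -0.11). In H3K79me3 the ratios of Plxna4 and Kif26b were 0.07 (-0.25 to 0.38) and 0.17 (-0.18 to 0.51), so they were not below WT there.

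The 4 members at least 1.5-fold higher in D546R in H3K79me3 had low counts per kb in WT. The formin gene Fhod3 had 1291, 1554 and 2566 counts and a ratio of 0.74 (0.39 to 1.09). The glycosylation gene Wbscr17 was at 0.71 (0.35 to 1.07), the adhesion gene Tenm3 at 0.68 (0.32 to 1.03) and Maml3, a coactivator of Notch signalling, at 0.60 (0.26 to 0.94). Their WT levels were 0.67, 0.64, 0.66 and 0.76 times the long-gene level and their D546R levels 1.08, 1.01, 1.01 and 1.12 times. D546R thus had them at the level of their peers, and WT, which also serves as the reference of the ratio, had them below it. In H3K79me2 Fhod3 was at -0.18 (-0.47 to 0.11) and Tenm3 at -0.01 (-0.29 to 0.26). Lowest after Aff2 was Hs3st4, a heparan sulfate enzyme gene, at -0.52 (-0.86 to -0.19).

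By role, fragment intervals excluded no change in D546R for few members of each list, and none of the 10 lists had a member past 2-fold. The shares over all genes, to read these counts against, were 4.15% lower and 14.0% higher in H3K79me2, and 9.76% lower and 7.38% higher in H3K79me3. With lists of 6 to 39 genes, several counts lie near those shares, which come from genes with fewer reads than members. Other genes with a mean of at least 1000 had 92 of 662 lower and 299 higher in H3K79me2, and 255 of 955 lower and 63 higher in H3K79me3. Of the 39 adhesion genes 1 was lower and 2 higher in H3K79me2, and 2 lower and 9 higher in H3K79me3. Of the 29 axon guidance and scaffold genes 3 were lower in H3K79me2, and 2 lower and 5 higher in H3K79me3. Of the 24 signalling genes 5 were higher in H3K79me2, among them Inpp4b, and 4 lower and 2 higher in H3K79me3. Of the 26 fragile site and metabolic genes 1 was higher in H3K79me2, and 1 lower and 7 higher in H3K79me3, with Atp8a2, a lipid flippase gene, highest at 0.46 (0.15 to 0.78). Of the 20 cytoskeleton genes 3 were lower and 1 higher in H3K79me2, and 2 higher in H3K79me3. Of the 19 transcription and chromatin genes 1, Atxn1, was higher in H3K79me2, and 2 were lower and 4 higher in H3K79me3, where the retinoic acid receptor gene Rarb was highest at 0.50 (0.23 to 0.77). The 11 glutamate and GABA receptor genes had 2 lower in H3K79me2 and 2 higher in H3K79me3, the 16 channel genes 1 lower in H3K79me2, and 1 lower and 3 higher in H3K79me3. The 7 genes on the RNA-binding list had 1 higher in H3K79me3, and the 6 receptor phosphatases none in either mark. The excess of higher over lower members in H3K79me3 depends on the scaling, as given above for the whole set.

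D544R against WT addressed the other exchanged residue. No member was past the 2-fold rule in H3K79me2 (background 0.0112% lower, 0.0337% higher) or in H3K79me3 (3.02% lower, 4.36% higher). In H3K79me2 the ratios lay between -0.34 and 0.36, with a median of -0.08 against -0.01 over all genes. Fragment intervals excluded no change for 31 members below WT and 1 above, beside 2.08% and 1.93% of all genes. Genes over the whole table have fewer reads, with a median half-width of the fragment interval of 0.47 against 0.20 in members. Among the 662 other genes with a mean of at least 1000, also at 0.20, 60 were below WT and 59 above. Below 0 were 242 of the 292, and 200 when scaled to the silent genes. The lowest were Tenm3, at -0.34 (-0.58 to -0.10), Aff2, and Thsd7a, a thrombospondin-domain gene, at -0.32 (-0.54 to -0.10). No member was past 1.5-fold (background 0.517% lower, 0.853% higher), so what differed was small in each member.

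In H3K79me3 the D544R ratios had a median of 0.10, against -0.00 over all genes, and it was -0.05 when scaled to the silent genes. Fragment intervals excluded no change for 7 members below WT and 59 above (background 5.78% and 6.43%). Among the 955 other genes with a mean of at least 1000, 159 were below WT and 76 above. At 1.5-fold 1 member was higher (background 12.5%): Unc5d, a netrin receptor gene of axon guidance, with 1748, 2478 and 2861 counts and a ratio of 0.68 (0.40 to 0.95). Its WT level was 0.67 times the long-gene level and its D544R level 1.01 times. The lowest was Zfpm2, a cofactor of GATA factors in heart development, with 2847, 1812 and 2628 counts and a ratio of -0.48 (-0.74 to -0.22). Ptprd, with 10189, 11134 and 11748 counts, was at 0.30 (0.18 to 0.42). The D544R ratios in the marks correlated with r of -0.11 over the 279 autosomal members.

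Between the mutants, no member was past the 2-fold rule in H3K79me2 (background 0.876% lower in D546R, 0.775% higher) or H3K79me3 (8.31% and 5.77%). At 1.5-fold 1 member was lower in H3K79me3 (background 19.0%), the anchoring protein gene Akap6, with 2333, 2412 and 2008 counts and a ratio of -0.69. Of the raised members 16 had a ratio above 0 in H3K79me2, with a median of 0.14 against 0.03 for the other 273, and the median of the raised members was 0.06 with total counts and 0.03 when scaled to the silent genes. In H3K79me3 the median of the raised members was -0.19.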

How the data were processed

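Per the file headers, the authors deposited unnormalized read counts for regions that open 2 kb upstream of each transcription start and close at the transcript's end. Bowtie, bedtools, DESeq and mm9 are named in the submitters' processing notes; no role or version, nor whether duplicates were removed, is given in the sources used here. The table gives no strand, so the side of the 2 kb extension was not checked. Input reads were not analysed here.

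From these counts, median-of-ratios size factors were computed within each mark (WT 1.35, D544R 0.972 and D546R 0.764 for H3K79me2; WT 0.982, D544R 0.872 and D546R 1.17 for H3K79me3). Log2 ratios used a prior count of 0.5, and 95% intervals were exact conditional binomial (Clopper-Pearson). Fragment intervals divide counts by reads per fragment, estimated from the 4591 autosomal regions under 5 kb; reads are not independent molecules. The 2-fold rule (mean scaled count of at least 100) is no significance test. Density was counts per kb of region. The silent reference was 43 genes of other tissues.

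The labels gave the groups, 1 library each. Named genes were the 5 lowest and 5 highest ratios per mark and mutant, the 8 densest and 4 sparsest in WT, the extremes of each role list, the longest and the nearest to the threshold, and 24 fixed members. Aff3, Aff1, Aff4, Fmr1, Ppm1g, Cstf2t, Skint5, Klra22, Klra15 and the remaining names were picked with their values in view. The members and lists were chosen with earlier results of these data known. Alternatives were other scalings, count minimums, folds, lengths and references. The scripts were tested on simulated data. Python 3.11.15 and edgeR 4.0.16 (TMM factors) were used.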

Additional observations from a re-analysis of the deposited data

How the results depend on the processing

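No paired analysis was possible because the labels carry no replicate numbers and each group had 1 library; no replicate could be left out either. At 1.5-fold in place of 2-fold, the count of members past the rule went from 0 to 1 for D546R against WT in H3K79me2, 5 in H3K79me3, 1 for D544R against WT in H3K79me3 and 1 for D546R against D544R in H3K79me3. At 2 times the silent reference, 2 members (Snd1 and Elmo1) were dense in WT H3K79me2, where none reached 3 times. The raised set held 6 members at 2 times the long-gene level or more, and 5 when chosen from WT H3K79me3; both settings were added after seeing the data. The class at 3 times the silent reference was empty, so no median for it could be given. The median log2 ratio of all members changed sign under some scalings. With libraries scaled to the silent genes it went from 0.03 to -0.18 for D546R and from 0.10 to -0.048 for D544R, each against WT in H3K79me3, and from 0.03 to -0.082 for D546R against D544R in H3K79me2. With total counts it was -0.045 in this last comparison and went from -0.05 to 0.021 in H3K79me3, and with size factors over all 6 libraries it was -0.0026 for D546R against WT in H3K79me3. The near-silent members, nearly the whole set, had -0.18, -0.047 and -0.083 with the silent genes, and -0.047 and 0.021 with total counts, in the same comparisons. The other 140 values run under an alternative kept their sign or count, with counts within 1.5 times and medians within the fragment interval of a typical member. Scaling to the silent genes shifted the all-gene median by -0.22 for D546R and -0.15 for D544R in H3K79me3, and by -0.12 for D546R against D544R in H3K79me2. The estimated reads per fragment, up to 18.6 in H3K79me3, widen the intervals there.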
